A study of Homo sapiens with 3 samples.

Results

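The genes described here are 42 genes that cells switch on when they sense type I interferon, out of the 58037 genes in a count table of RWPE1 cells. They were taken by name from a list of interferon-stimulated genes, and each of the 42 symbols had a row in the table. RWPE1 is an immortalized line of non-cancerous human prostate epithelial cells. The study asked what the loss of OLFM4, which encodes the secreted glycoprotein olfactomedin 4, changes in these cells. Paired, strand-specific reads were taken from rRNA-depleted total RNA of 3 libraries, 1 for each of the genotypes OLFM4-wild, OLFM4-knockout and OLFM4-active. According to the study's methods the cells were stable GFP reporter lines, made by transfecting OLFM4-wild RWPE1 cells with CRISPR/Cas9 plasmids for OLFM4 knockout (a double nickase) or for OLFM4 activation, selected with puromycin, and sorted for GFP before RNA was purified. The methods give the activation plasmids as the source of the OLFM4-wild reporter cells and do not describe how the cells labelled OLFM4-active were made. The study's results mention GFP sorting for the knockout cells and set them against OLFM4-wild RWPE1 cells without the word reporter. Whether the OLFM4-wild library came from transfected, selected and sorted cells is thus not certain, and such handling cannot be told apart from genotype. With 1 library per genotype there is no spread between replicates, no test between genotypes was possible, and every interval below is a 95% counting interval that describes 2 libraries only.

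Type I interferons are secreted by infected or stressed cells and bind the receptor chains IFNAR1 and IFNAR2, whose kinases JAK1 and TYK2 pass the signal on by phosphorylation. The factor ISGF3, which includes STAT2 and IRF9, then forms and binds a DNA element called the interferon-stimulated response element (ISRE) in the promoters of its target genes. The products of those genes detect viral RNA, degrade it, block translation or virus entry, and tag proteins with ISG15. Epithelial cells of many tissues keep a low level of these transcripts without infection.

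The element is shown first, because it is what many of these promoters share and the choice of the genes did not use it. Promoter windows of RefSeq, from 250 bases before to 50 bases after an annotated start in GRCh38.p14, were given for 35 of the 42 genes. The core of the element was searched as GAAA, any 2 bases, GAAA on either strand, with overlapping matches kept. It was found in 25 of the 35 genes (71.4%), against 1195 of all 27305 genes with a window (4.38%) and 3.57% of all 35116 windows. The longer form, in which CT follows the core, was found in 16 of the 35 (45.7%), against 0.322% of all genes and 0.273% of windows. No window was given for OAS2, OASL, IFIT2, MX2, USP18, IRF7 and TRIM22. The following stretches begin 170 bases before the start and stop before any base that GENCODE 44 counts as an exon of the gene. They come from 3 genes that were among the lower ones in the knockout library and 3 whose log2 fold change there lay between -0.38 and -0.02, and capitals mark each core or longer form on either strand.
IFI27: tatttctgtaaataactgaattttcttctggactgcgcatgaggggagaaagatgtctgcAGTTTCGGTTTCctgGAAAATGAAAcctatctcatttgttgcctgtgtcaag
IFI6: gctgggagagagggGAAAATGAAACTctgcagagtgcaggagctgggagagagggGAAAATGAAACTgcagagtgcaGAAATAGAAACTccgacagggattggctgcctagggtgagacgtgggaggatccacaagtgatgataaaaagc
IFIT1: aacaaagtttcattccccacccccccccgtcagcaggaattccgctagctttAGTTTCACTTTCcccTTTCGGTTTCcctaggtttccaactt
HERC5: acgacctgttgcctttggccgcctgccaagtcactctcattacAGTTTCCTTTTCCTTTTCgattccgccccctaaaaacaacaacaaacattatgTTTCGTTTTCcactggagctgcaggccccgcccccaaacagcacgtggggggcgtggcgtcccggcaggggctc
ISG15: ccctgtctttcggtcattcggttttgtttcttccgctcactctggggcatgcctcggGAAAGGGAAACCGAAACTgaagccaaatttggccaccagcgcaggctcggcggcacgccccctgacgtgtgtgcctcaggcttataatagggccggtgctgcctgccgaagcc
IFIT5: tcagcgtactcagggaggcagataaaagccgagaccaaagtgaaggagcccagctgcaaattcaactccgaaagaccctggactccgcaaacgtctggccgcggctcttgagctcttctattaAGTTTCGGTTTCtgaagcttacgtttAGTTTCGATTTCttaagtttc
The IFI27 stretch is chr14:94110566-94110677 on the plus strand and holds 2 cores, 1 of them in the longer form. The IFI6 stretch is chr1:27672213-27672362 on the minus strand and holds 3 cores, each in the longer form. The IFIT1 stretch is chr10:89392453-89392545 on the plus strand, with 2 cores and 1 longer form. The HERC5 stretch is chr4:88456949-88457118 on the plus strand, with 3 cores and 1 longer form. The ISG15 stretch is chr1:1013327-1013496 on the plus strand, with 2 cores that overlap and 1 longer form. The IFIT5 stretch is chr10:89414398-89414567 on the plus strand, with 2 cores, both in the longer form. The stretches of IFI27 and ISG15 lie in introns of longer annotated transcripts, and the other 4 lie outside the annotated transcripts of their gene.

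The libraries held 16309906 counts (OLFM4-wild), 58837147 counts (OLFM4-knockout) and 23224216 counts (labelled OLFM4-active). Values are CPM, counts scaled to the library's size, with sizes adjusted by TMM, a method that sets the bulk of genes level between libraries. TMM raised each log2 fold change over that with library totals by 0.35 (OLFM4-knockout over OLFM4-wild), 0.11 (labelled OLFM4-active over OLFM4-wild) and 0.24 (OLFM4-knockout over labelled OLFM4-active). OLFM4 itself had 214, 131 and 16 counts in that order, or 11.8, 2.55 and 0.670 CPM. The last value goes against its label, so it is called the library labelled OLFM4-active throughout, and no direction below is read as an effect of more OLFM4. The OLFM4-knockout library still held 131 OLFM4 counts, more than the one labelled OLFM4-active, so that all 3 names below are labels, and whether labels were exchanged was not tested. The 8 markers of basal and luminal prostate epithelium were KRT5, KRT14, TP63, ITGA6, KRT8, KRT18, EPCAM and CDH1. They summed to 18586, 40240 and 22002 CPM in the order OLFM4-wild, OLFM4-knockout and labelled OLFM4-active. Their log2 fold changes over OLFM4-wild ran from -0.29 to 1.27 in OLFM4-knockout and from -0.95 to 0.80 in the library labelled OLFM4-active. Of the markers of secretory prostate cells, KLK2 was at 0, KLK3 had 2 counts under OLFM4-wild and 0 elsewhere, and ACP3 had 152, 278 and 100 counts.

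In that same library order, which is kept below, the 42 genes held 35796, 57041 and 20339 counts, or 1970, 1111 and 851 CPM in sum. They took 0.219% (0.217 to 0.222), 0.0969% (0.0962 to 0.0977) and 0.0876% (0.0864 to 0.0888) of all counts. The OLFM4-wild library was highest, and the intervals of the 3 shares did not overlap. Without LGALS3BP the sums were 1790, 879 and 711 CPM. In bulk RNA, fewer cells with the transcripts and less transcript in each cell cannot be told apart. The OLFM4-wild library had the highest level of 40 of the 42 genes, and IFI35 and LGALS3BP were highest in the OLFM4-knockout library. The library labelled OLFM4-active had the lowest level of 33 genes and the OLFM4-knockout library the lowest of 9, which were IFIT2, MX2, BST2, IFI27, IFI44, SAMD9, PARP14, ISG20 and XAF1.

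**Figure D1:**
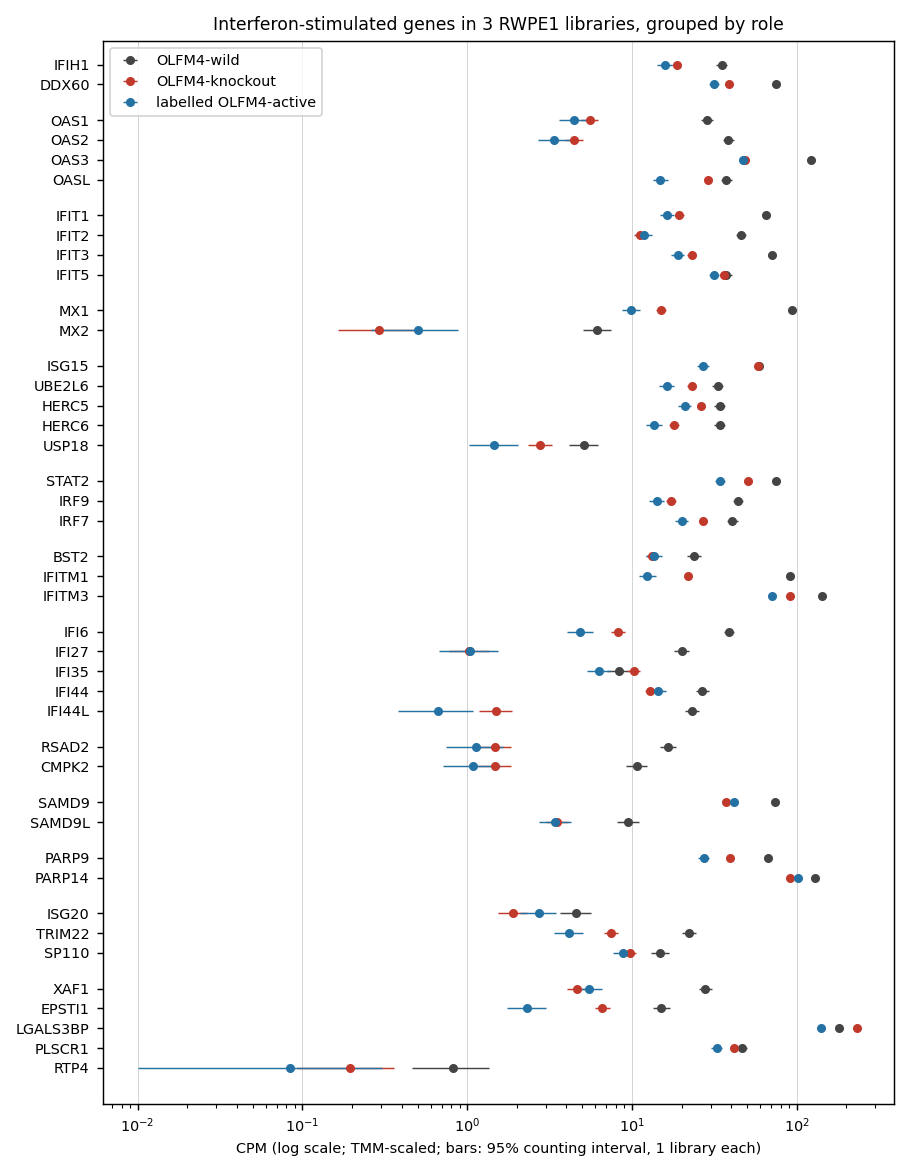
Level of each of the 42 genes in the 3 RWPE1 libraries, in CPM on a log axis, grouped by role from RNA sensing at the top to other genes at the bottom. Points are single libraries and bars are 95% counting intervals; the OLFM4-wild point lies farthest to the right for 40 genes, IFI35 and LGALS3BP being the others, and the points of MX2, IFI27 and IFI44L lie near or below 1 CPM in the other libraries.

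The first comparison asked how these genes differ between the OLFM4-knockout and OLFM4-wild libraries. Their median log2 fold change was -1.12, with quartiles at -2.06 and -0.61 and a range from -4.36 (MX2) to 0.37 (LGALS3BP), whereas the median was 0.10 over the 16600 genes that averaged 1 CPM or more, called all genes below. A log2 fold change below -1 was seen for 22 of the 42 genes and for 7.56% of all genes. None of the 42 was above 1, against 5.77% of all genes. Below -2 there were 13 of the 42 and 1.44% of all genes. With library totals 29 of the 42 and 13.9% of all genes were below -1. Of the 42 genes, 41 averaged 1 CPM or more, RTP4 being the exception, and 21 of those 41 were below -1. MX2 reached that mean only through the OLFM4-wild library, where it was high. Intervals included 0 for IFIT5 and ISG15. With library totals in place of TMM, 41 of the 42 genes were below 0 rather than 40, since IFI35 went from 0.29 to -0.06, and the median was -1.47.

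The second comparison asked the same of the library labelled OLFM4-active, and it used the same OLFM4-wild library as the first. The median was -1.35, with quartiles at -2.70 and -0.91 and a range from -5.07 (IFI44L) to -0.25 (IFIT5), beside a median of 0.05 over all genes. There were 30 of the 42 genes below -1, against 6.73% of all genes, and 14 below -2, against 1.54%. None was above 1, against 3.78% of all genes. All 42 values were below 0 with TMM and with library totals, and no interval included 0.

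**Figure D2:**
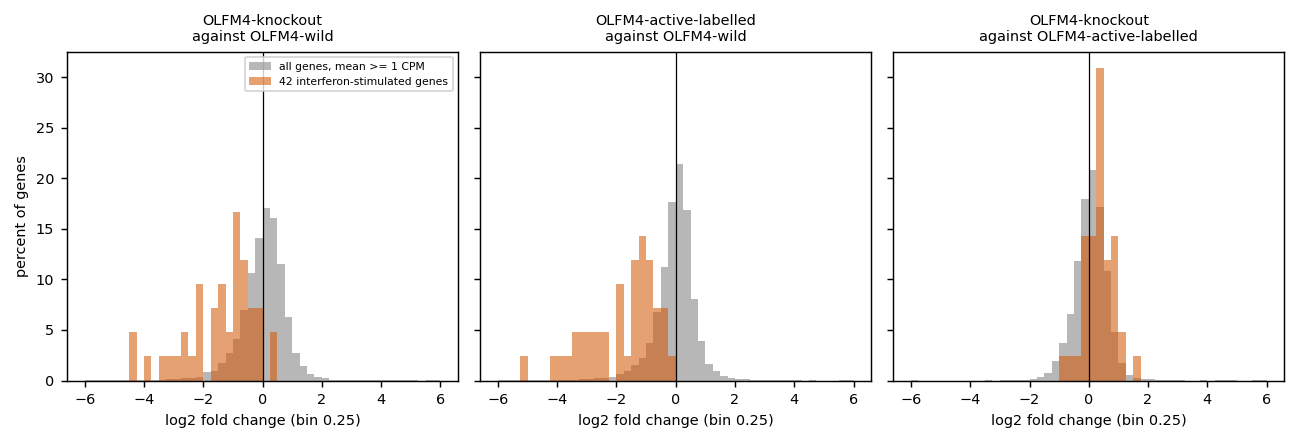
Percent of genes in bins of 0.25 log2 fold change for the 42 interferon-stimulated genes (orange) and for all genes averaging 1 CPM or more (grey), in the 3 comparisons of single libraries. Against OLFM4-wild the orange bars lie left of the grey ones, with medians of -1.12 and -1.35 against 0.10 and 0.05, and between the other libraries they lie slightly to the right, with a median of 0.35 against 0.08.

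**Figure D3:**
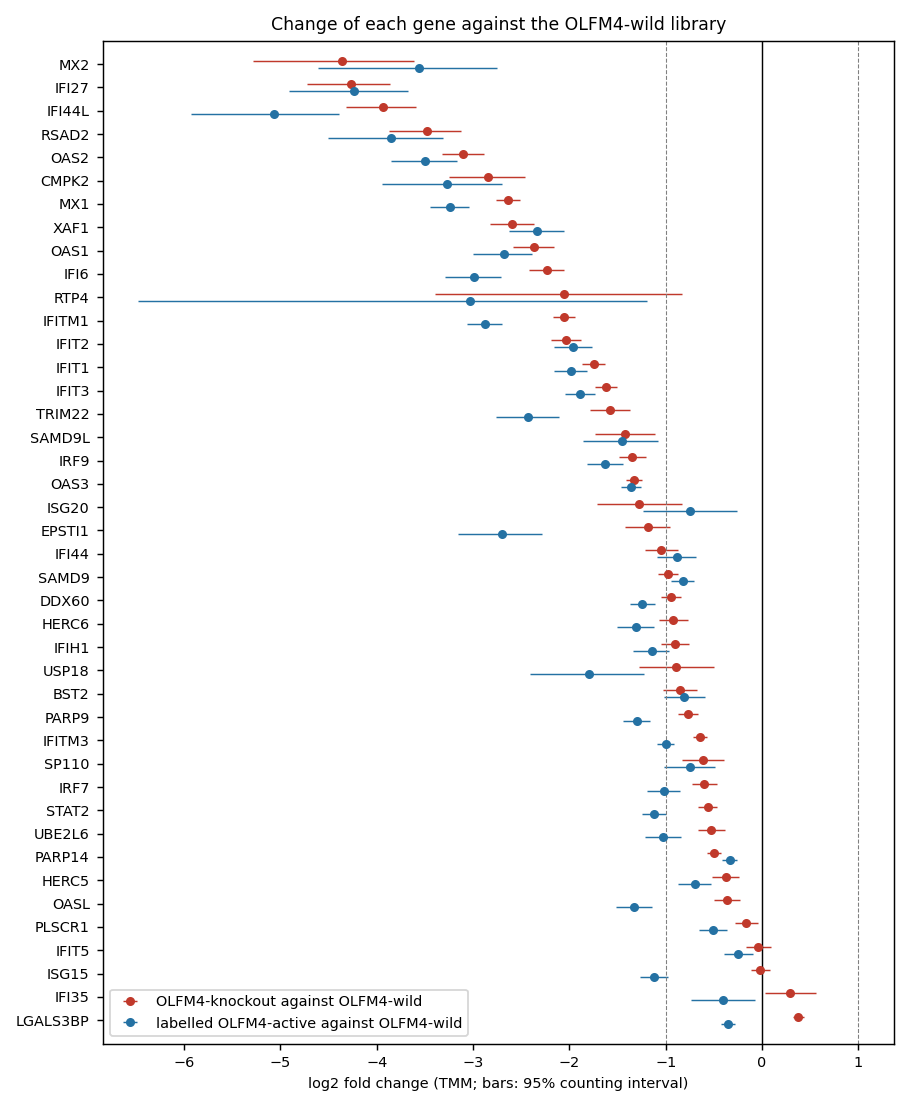
Log2 fold change of each gene against the OLFM4-wild library, in OLFM4-knockout (red) and in the library labelled OLFM4-active (blue), sorted by the red values, with bars for the 95% counting interval. Dashed lines mark -1 and 1; 22 red and 30 blue points lie left of -1, IFI35 and LGALS3BP are the red points right of 0, and the widest bars belong to RTP4, with at most 15 counts in a library.

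Sensing of viral RNA in the cytosol is the task of IFIH1, which encodes the receptor MDA5, and DDX60 encodes a helicase linked to the same receptors. IFIH1 had 35.1, 18.7 and 15.8 CPM, and its log2 fold changes over OLFM4-wild were -0.91 (-1.05 to -0.76) for OLFM4-knockout and -1.15 (-1.34 to -0.96) for the library labelled OLFM4-active. Pairs of changes are given in this order from here on. DDX60 had 74.4, 38.6 and 31.4 CPM, with changes of -0.95 and -1.24. Both genes stood at about the same distance below the OLFM4-wild library.

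The OAS genes encode enzymes that, on binding double-stranded RNA, make oligoadenylates, except OASL, which lacks this activity. OAS1, on chromosome 12 from 112905856 to 112933219, had 28.6, 5.53 and 4.44 CPM, with log2 fold changes of -2.37 (-2.58 to -2.16) and -2.68 (-3.005 to -2.39). OAS2, at 112978395 to 113011723, was lower still, with 38.4, 4.46 and 3.39 CPM and changes of -3.10 (-3.33 to -2.89) and -3.49 (-3.85 to -3.17). OAS3 lies between these neighbours, at 112938051 to 112976460, and kept more of its level, with 121, 48.3 and 47.3 CPM and changes of -1.33 (-1.41 to -1.25) and -1.36 (-1.47 to -1.26). The difference between neighbours in the same pair of libraries does not depend on scaling. The log2 fold change of OAS2 minus that of OAS3 was -1.78 (-2.01 to -1.54) and -2.14 (-2.51 to -1.79), and neither interval included 0. OASL had 37.5, 29.1 and 14.9 CPM, which gave -0.36 (-0.50 to -0.23) and -1.33 (-1.52 to -1.14). The 4 OAS genes summed to 226, 87.4 and 70.0 CPM.

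The IFIT genes sit side by side on chromosome 10 and encode proteins that bind foreign RNA and restrain its translation. IFIT1 had 64.9, 19.3 and 16.4 CPM (-1.75, -1.87 to -1.63, and -1.99, -2.16 to -1.82). IFIT2 had 46.1, 11.2 and 11.8 CPM (-2.03 and -1.96), and IFIT3 had 70.6, 23.0 and 19.0 CPM (-1.62 and -1.89). These 3 were lower by a similar size in both libraries, whereas IFIT5 stayed near its OLFM4-wild level. IFIT5 had 37.4, 36.3 and 31.5 CPM, with changes of -0.04 (-0.17 to 0.09), or -0.39 with library totals, and -0.25 (-0.40 to -0.10). IFIT1 ends 8080 bases before IFIT5 begins, and their log2 fold changes differed by -1.71 (-1.89 to -1.53) and -1.74 (-1.97 to -1.51). Both upstream stretches printed above hold the element, that of IFIT5 more often in its longer form than that of IFIT1.

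MX1 and MX2 on chromosome 21 encode dynamin-like GTPases that trap viral components. MX1 had 93.8, 15.1 and 9.92 CPM, with changes of -2.64 (-2.76 to -2.52) and -3.24 (-3.44 to -3.04). MX2 had 112, 15 and 12 counts, or 6.16, 0.292 and 0.502 CPM, with changes of -4.36 (-5.28 to -3.62) and -3.56 (-4.61 to -2.76). Both genes were thus among the lowest relative to OLFM4-wild. MX2 minus MX1 was -1.76 (-2.65 to -0.96) in the knockout library, while in the library labelled OLFM4-active the difference of -0.38 had an interval from -1.39 to 0.51.

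ISG15 is a ubiquitin-like protein that is joined to other proteins by the enzymes UBE2L6 and HERC5 and removed by USP18, which also restrains the receptor. Its transcript separated the knockout library from the one labelled OLFM4-active. ISG15, on chromosome 1 from 1001138 to 1014540, had 1066, 2975 and 645 counts, or 58.7, 58.0 and 27.0 CPM. The knockout value was level with OLFM4-wild, at -0.02 (-0.12 to 0.08), or -0.37 with library totals, and the value of the library labelled OLFM4-active was -1.12 (-1.26 to -0.98). UBE2L6, the conjugating enzyme, had 33.1, 23.0 and 16.3 CPM (-0.53 and -1.02), and HERC5, the ligase, had 34.0, 26.2 and 20.9 CPM (-0.38 and -0.70). The related ligase gene HERC6 had 34.0, 18.0 and 13.7 CPM (-0.92 and -1.31), and HERC6 minus its neighbour HERC5 was -0.54 (-0.75 to -0.34) and -0.61 (-0.88 to -0.35). USP18 had 93, 142 and 35 counts, or 5.12, 2.77 and 1.46 CPM, with changes of -0.89 (-1.28 to -0.49) and -1.79 (-2.41 to -1.23), and 18.8% of its 75-base stretches occur also in transcripts of other genes, so that its count is uncertain. Of these 5 genes, 0 were below -1 under OLFM4-knockout (7.56% of all genes) and 4 in the library labelled OLFM4-active (6.73% of all genes). With library totals the first count was 2, HERC6 at -1.27 and USP18 at -1.24, beside 13.9% of all genes, and the second was still 4.

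The members that carry the signal itself are STAT2 and IRF9, partners in ISGF3, and IRF7, which drives transcription of interferon alpha genes. STAT2 had 75.01, 50.7 and 34.4 CPM (-0.57 and -1.12) and IRF7 had 40.7, 26.8 and 20.0 CPM (-0.60 and -1.02). IRF9 had 43.9, 17.3 and 14.1 CPM, with changes of -1.35 (-1.49 to -1.21) and -1.63 (-1.82 to -1.45). Its exons share 1544 bases with the gene ENSG00000259529 on the same strand, which had 1066, 1818 and 625 counts and changes of -0.73 and -1.16, so the IRF9 count is uncertain. All 3 were highest in the OLFM4-wild library and lowest in the one labelled OLFM4-active.

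Among the proteins that act at membranes, BST2 (tetherin) holds budding virus on the cell surface, and IFITM1 and IFITM3 block fusion. IFITM1 had 91.2, 22.0 and 12.4 CPM, with changes of -2.06 (-2.17 to -1.95) and -2.87 (-3.06 to -2.70). IFITM3 had 142, 90.7 and 70.9 CPM (-0.64 and -0.999), and BST2 had 23.9, 13.2 and 13.6 CPM (-0.85 and -0.81). IFITM1 minus IFITM3, which lies 4403 bases away on the other strand, was -1.41 (-1.54 to -1.28) and -1.88 (-2.08 to -1.68). The transcripts of IFITM1 and IFITM3 share 305 stretches of 75 bases, and reads from those stretches would not be unique to either gene. Their relative IFITM2, which is not one of the 42, had 77.2, 23.3 and 21.2 CPM (-1.73 and -1.86).

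The genes named IFI, for interferon-induced, spanned nearly the whole range. IFI27 had 365, 53 and 25 counts, or 20.1, 1.03 and 1.05 CPM, with changes of -4.27 (-4.73 to -3.86) and -4.24 (-4.91 to -3.68). IFI44L had 420, 77 and 16 counts, or 23.1, 1.5 and 0.670 CPM, with changes of -3.94 (-4.32 to -3.59) and -5.07 (-5.93 to -4.39). These 2 genes were near 1 CPM outside the OLFM4-wild library. IFI44, 3650 bases from IFI44L on chromosome 1, had 26.7, 12.9 and 14.4 CPM (-1.05 and -0.89), and the pair differed by -2.90 (-3.31 to -2.50) and -4.22 (-5.07 to -3.47). IFI6, whose product resides in mitochondria and the endoplasmic reticulum, had 38.9, 8.24 and 4.85 CPM, with changes of -2.24 (-2.41 to -2.06) and -2.995 (-3.30 to -2.72). IFI35 went the other way in the knockout library with TMM but not with library totals. It had 8.37, 10.2 and 6.32 CPM, with changes of 0.29 (0.03 to 0.56, or -0.06 with totals) and -0.40 (-0.74 to -0.07).

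RSAD2 encodes viperin, a radical SAM enzyme that turns CTP into a chain terminator of viral polymerases, and CMPK2, its neighbour on chromosome 2, encodes a nucleotide kinase. RSAD2 had 302, 76 and 27 counts, or 16.6, 1.48 and 1.13 CPM, with changes of -3.48 (-3.87 to -3.12) and -3.85 (-4.50 to -3.31). CMPK2 had 194, 76 and 26 counts, or 10.7, 1.48 and 1.09 CPM, with changes of -2.84 (-3.25 to -2.46) and -3.27 (-3.94 to -2.70). RSAD2 minus CMPK2 was -0.64 (-1.19 to -0.09) and -0.58 (-1.46 to 0.30), so the second difference was not detectable at this depth. The genes overlap on opposite strands, and the counting used the strand.

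SAMD9 and SAMD9L, neighbours on chromosome 7, encode related proteins that restrain viruses and cell growth. SAMD9 had 73.4, 37.3 and 41.5 CPM (-0.98 and -0.82) and SAMD9L had 9.47, 3.53 and 3.43 CPM (-1.42 and -1.46). PARP9 and PARP14, ADP-ribosyltransferase genes on chromosome 3, had 67.2, 39.5 and 27.3 CPM (-0.77 and -1.30) and 128, 90.8 and 101 CPM (-0.50 and -0.34). PARP14 thus kept more of its level than PARP9 in both libraries, and the difference was -0.27 (-0.39 to -0.14) and -0.96 (-1.12 to -0.80). The exonuclease gene ISG20 had 83, 97 and 65 counts, or 4.57, 1.89 and 2.72 CPM (-1.27 and -0.75). TRIM22, a ubiquitin ligase gene, had 22.3, 7.48 and 4.14 CPM (-1.58 and -2.43), and SP110, a nuclear body gene with 15.6% of its 75-base stretches in other genes' transcripts, had 14.8, 9.68 and 8.79 CPM (-0.61 and -0.75). Of the 1775 shared stretches of SP110, 1679 match ENSG00000225963, which overlaps it on the opposite strand.

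Among the remaining genes, XAF1, a gene linked to apoptosis, had 28.0, 4.62 and 5.52 CPM, with changes of -2.60 (-2.83 to -2.37) and -2.34 (-2.63 to -2.06). Of its 75-base stretches, 32.8% also match PRAL, which overlaps it on the opposite strand, and the counting used the strand. EPSTI1 had 15.1, 6.62 and 2.30 CPM, with changes of -1.19 (-1.42 to -0.95) and -2.70 (-3.16 to -2.29). PLSCR1, which encodes a phospholipid scramblase, had 46.5, 41.6 and 32.6 CPM (-0.16 and -0.51). LGALS3BP encodes a secreted glycoprotein and was the only one of the 42 with a value above 0 under both scalings in the knockout library. With library totals, though, it was about level with OLFM4-wild. It had 180, 233 and 141 CPM, with changes of 0.37 (0.32 to 0.43), or 0.02 with totals, and -0.35 (-0.42 to -0.28). RTP4, with 15, 10 and 2 counts, had ratios on the log2 scale of -2.06 (-3.40 to -0.83) and -3.03 (-6.47 to -1.198), and at these counts its level could be placed only within wide limits.

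Levels of different genes can be set side by side only per length, here as CPM per kb of all annotated exons of a gene. That length was 867 bases for ISG15 and 14562 for MX2, and it can exceed that of the transcripts present. Which transcripts were present was not tested, so places on this scale depend on the annotation too. On that scale ISG15 was first among the 42 in the OLFM4-wild library, at 67.7, followed by IFITM1 at 54.8, LGALS3BP at 52.5, IFITM3 at 49.8 and IFI6 at 41.5. In the knockout library LGALS3BP was first at 68.0 and ISG15 second at 66.8, and IFITM1 was at place 4 with 13.2 and IFI6 at place 10 with 8.80. In the library labelled OLFM4-active LGALS3BP and ISG15 again led, at 41.1 and 31.1, while IFITM1 was at place 9 with 7.46. MX2 was last in each library, at 0.423, 0.0201 and 0.0345 CPM per kb. IFI6 went from place 5 under OLFM4-wild to place 10 under OLFM4-knockout, below UBE2L6, IRF7 and PLSCR1, which went from places 7, 8 and 13 to places 6, 7 and 8.

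The last comparison set the OLFM4-knockout library beside that labelled OLFM4-active, without the OLFM4-wild library. The median log2 fold change of the 42 genes was 0.35, beside 0.08 over all genes. With library totals these medians were 0.11 and -0.16. Above 1 there were 3 genes, against 2.95% of all genes. They were EPSTI1 at 1.51 (1.11 to 1.96), IFI44L at 1.13 (0.37 to 2.04) and ISG15 at 1.10 (0.98 to 1.23). With library totals EPSTI1 alone, at a log2 fold change of 1.28, was still above 1, beside 1.28% of all genes. No gene was below -1, against 3.39% of all genes. With TMM 33 of the 42 were higher in the knockout library (56.7% of all genes) and with library totals 29 (36.6% of all genes), the difference being OAS3, IFIT5, SAMD9L and SP110. Intervals included 0 for 13 genes, among them OAS1, OAS3, IFI27, RSAD2 and CMPK2. OASL at 0.97 (0.80 to 1.14), USP18 at 0.90 (0.37 to 1.49), TRIM22 at 0.85 (0.53 to 1.19) and IFITM1 at 0.82 (0.63 to 1.01) came next after those 3, besides RTP4 at 0.97 with an interval that included 0.

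The genes are set out here by whether the window held the element. For OLFM4-knockout over OLFM4-wild, 13 of 25 genes with the core and 5 of 10 without it were below -1 (7.56% of all genes). The medians were -1.05 and -1.13. In the library labelled OLFM4-active these counts were 15 of 25 and 8 of 10 (6.73% of all genes), with medians of -1.24 and -1.39. For the longer form, 9 of 16 genes with it and 9 of 19 without it were below -1 under OLFM4-knockout (7.56% of all genes). Their medians were -1.12 and -0.98. In the library labelled OLFM4-active these counts were 11 of 16 and 12 of 19 (6.73% of all genes), with medians of -1.60 and -1.15. XAF1, OAS1 and CMPK2 had no core in the window while changing by -2.60, -2.37 and -2.84, and IFIT5 and ISG15 had the longer form with changes of -0.04 and -0.02. A match is a run of letters and not a measured binding site.

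**Figure D4:**
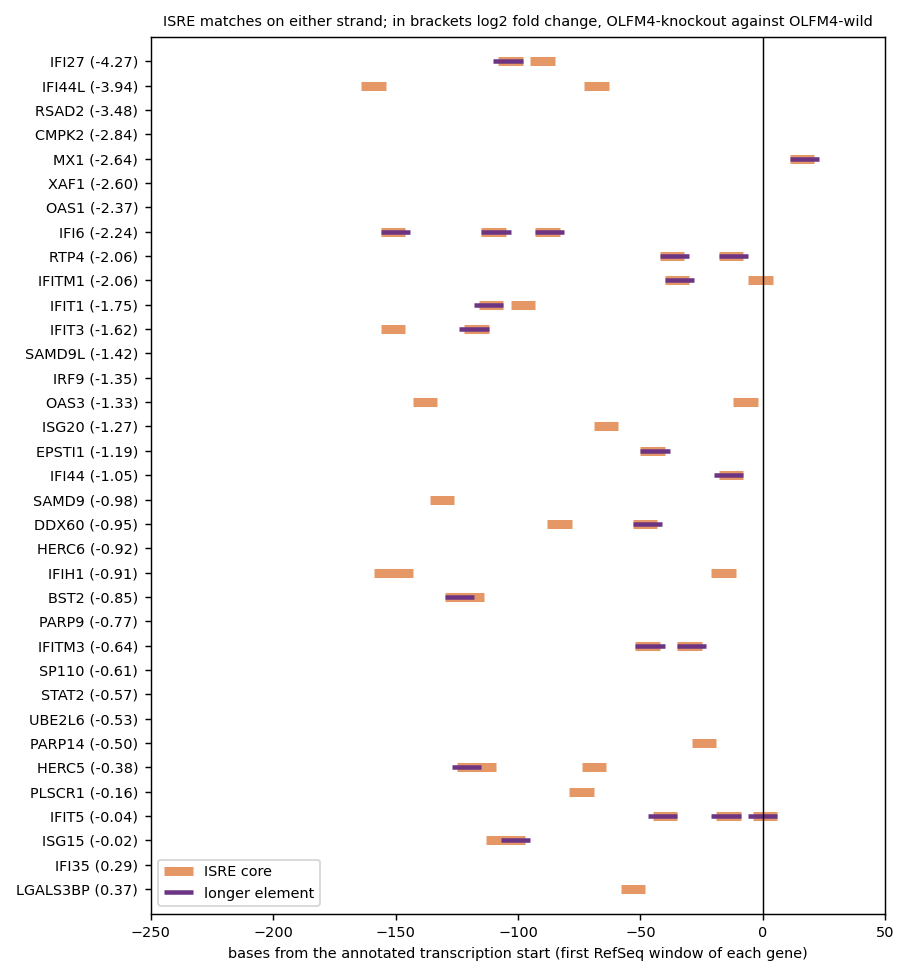
Places of the ISRE core (orange) and of its longer form (purple) in the first RefSeq window of each of 35 genes, in bases from the annotated start, sorted by the log2 fold change in brackets (OLFM4-knockout against OLFM4-wild). Matches occur from IFI27 (-4.27) at the top to LGALS3BP (0.37) at the bottom and lie mostly within 170 bases before the start; the matches of RSAD2 and PARP9 lie in a second window that is not drawn.

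Genes that act before and around the 42 were described from lists of the pathway. Of 21 genes for type I and type III interferons, 15, 16 and 17 were at 0. IFNB1 and IFNL2 to IFNL4 had no count in any library, which allows up to 0.165, 0.0584 and 0.126 CPM (3 counts). IFNK, an interferon gene of keratinocytes, had 33, 40 and 11 counts. It averaged 1 CPM or more only through the OLFM4-wild library, where it was high. Its log2 fold changes were -1.22 (-1.92 to -0.51) and -1.94 (-3.11 to -0.96), in the same direction as most of the 42. IFNE, an epithelial interferon gene, had 20, 210 and 139 counts, or 1.10, 4.09 and 5.82 CPM, with changes of 1.86 (1.23 to 2.63) and 2.37 (1.72 to 3.16), in the opposite direction.

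Of 9 genes for receptor chains and kinases, 0 were past a log2 fold change of 1 either way in the knockout library. Of all genes, 7.56% were below -1 and 5.77% above 1 there. In the library labelled OLFM4-active 1 of the 9, IFNAR2 at 1.01 (0.71 to 1.31, or 0.89 with totals), was above 1, beside 3.78% of all genes. With library totals 1 of the 9 was below -1 under OLFM4-knockout and 2 were in the library labelled OLFM4-active, beside 13.9% and 8.36% of all genes. IFNAR1 had 34.5, 26.6 and 63.4 CPM, with changes of -0.38 (-0.51 to -0.24) and 0.88 (0.74 to 1.01). The kinase gene JAK1 had 98.1, 98.98 and 104 CPM, with changes of 0.01 (-0.07 to 0.09), or -0.34 with library totals, and 0.09, and TYK2 had 55.5, 72.5 and 57.6 CPM. The receptor and kinase genes had medians of 0.01 and 0.05, or -0.34 and -0.06 with totals. Of 6 transcription factor genes outside the 42, 1 and 2 were below -1, beside 7.56% and 6.73% of all genes. With library totals these counts were 2 and 2, beside 13.9% and 8.36% of all genes. IRF1 had 31.5, 15.7 and 9.21 CPM (-1.01 and -1.77), and IRF3, which acts before interferon is made, had 39.6, 58.9 and 37.8 CPM (0.57 and -0.07).

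Of 15 nucleic acid sensors and adaptors outside the 42, 1 was below -1 under OLFM4-knockout, a share near the 7.56% of all genes. In the library labelled OLFM4-active 4 were below -1 (6.73% of all genes). In both comparisons 0 were above 1, beside 5.77% and 3.78% of all genes. The medians were -0.62 and -0.34. With library totals 7 and 4 of the 15 were below -1, beside 13.9% and 8.36% of all genes, so the first count depends on the scaling. RIGI, the RNA receptor related to IFIH1, had 72.6, 23.1 and 28.5 CPM (-1.65, -1.76 to -1.53, and -1.35, -1.48 to -1.21). DHX58 had 10.2, 5.26 and 3.56 CPM (-0.96 and -1.52) and the DNA exonuclease gene TREX1 had 13.2, 6.68 and 4.73 CPM (-0.98 and -1.48). CGAS, the DNA sensor, was highest under OLFM4-knockout, with 31.5, 56.2 and 42.3 CPM (0.83, or 0.48 with totals, and 0.43, or 0.31). Of 5 negative regulators, none was past 1 in the knockout library, beside 7.56% of all genes below -1 and 5.77% above 1. With library totals 1 of the 5, PIAS1, was below -1 there, beside 13.9% of all genes. In the library labelled OLFM4-active SOCS3 was at -1.62 (-2.17 to -1.12), with 6.73% of all genes below -1. SOCS1, from 9, 42 and 41 counts, was at 1.73 (0.73 to 3.02), with 3.78% of all genes above 1. SOCS1 averaged 1 CPM or more only through the library labelled OLFM4-active, where it was high. Of 13 genes that lean to interferon gamma, 6 averaged 1 CPM or more, and 2 and 3 of these were below -1, beside 7.56% and 6.73% of all genes. They were IRF1, counted already among the transcription factors, and GBP2, joined by GBP3 in the library labelled OLFM4-active. GBP2 was the lowest at 115, 26 and 4 counts (-3.62, -4.32 to -3.02, and -5.08, -7.14 to -3.85), and like MX2 it reached that mean only through the OLFM4-wild library.

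**Figure D5:**
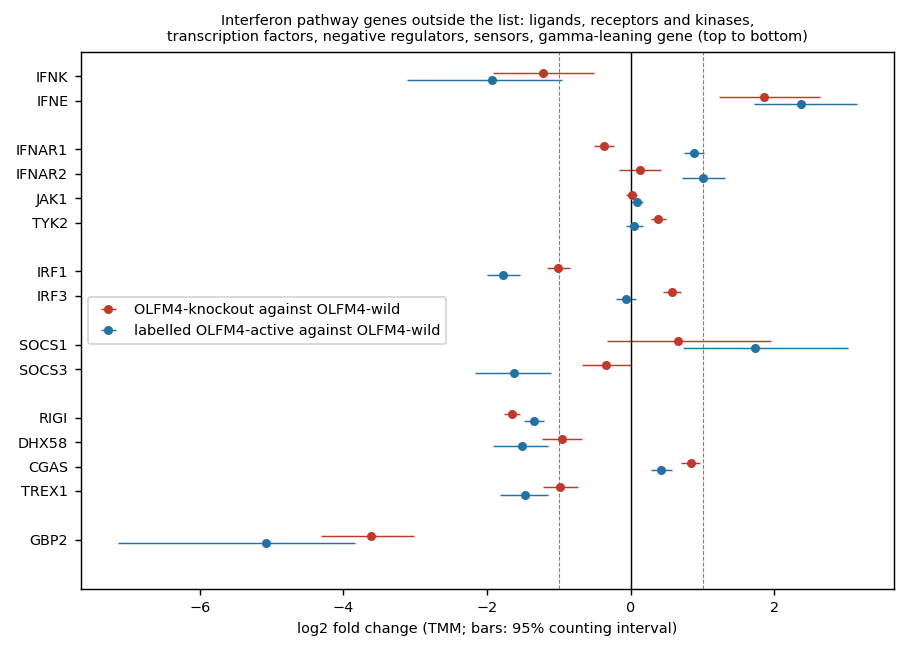
Log2 fold change against the OLFM4-wild library of the pathway genes outside the 42 that the text names, in OLFM4-knockout (red) and in the library labelled OLFM4-active (blue), in blocks for ligands, receptors and kinases, transcription factors, negative regulators, sensors and adaptors, and a gene that leans to interferon gamma, with 95% counting intervals. JAK1 lies at 0 for both colours, IFNE lies right of 1, and RIGI, IRF1 and GBP2 lie at or left of -1.

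Markers of other cells were checked beside these results. Of 8 leukocyte markers, which summed to 32.4, 24.95 and 20.1 CPM, CD68 gave nearly all, CD3E and CLEC4C were at 0, and PTPRC had 0, 2 and 0 counts. COL3A1 and LUM, of fibroblasts, were at 0, the 6 fibroblast markers summed to 34.1, 31.8 and 22.9 CPM and the 4 endothelial ones to 1.76, 0.838 and 0.460 CPM. The state of the epithelial cells differed too. Of 11 genes of the cornified envelope and late keratinocyte differentiation that averaged 1 CPM or more, 7 were below -1 in each library against OLFM4-wild (7.56% and 6.73% of all genes), with medians of -2.43 and -1.75. FLG, which encodes filaggrin, had 191, 5.92 and 6.49 CPM, while TGM1, a transglutaminase gene, had 177, 363 and 157 CPM. The summed level of the whole list of 12 was 2565, 2004 and 1346 CPM. The part that this difference in state has in the interferon result was not tested.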

How the data were processed

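The table holds 1 library each of OLFM4-wild, OLFM4-knockout and OLFM4-active RWPE1 cells, grouped by the genotype labels. Per the study's methods, the authors aligned read pairs to GRCh38 with HISAT2 and counted uniquely mapped, reversely stranded pairs per gene with featureCounts. The submitters' processing notes also name cutadapt. The deposited values are whole-number counts without normalization. Of 58037 identifiers, 56993 (98.2%) matched GENCODE 44, which gave positions and exon lengths. Library totals were scaled with TMM factors of 1.11, 0.872 and 1.03 (edgeR 4.0.16), and log2 fold changes are on the limma-voom scale (0.5 counts added). Intervals are exact 95% Clopper-Pearson intervals, conditional on the 2 counts for a fold change. Reads carry no molecular identifiers, so intervals cover counting error only. Background shares used genes averaging 1 CPM or more across all 3 libraries. Promoter windows and their sequences are from RefSeq (GRCh38.p14). The fold change step was tested on simulated data. The 42 genes, the pathway lists and the markers were chosen with earlier results of these data known. All 42 genes are named, genes of the other lists were named after their values were seen, and some of those are not reported here. Alternatives to TMM were library totals, upper quartile factors and size factors of DESeq2 1.42.0. Other alternatives were offsets of 1 and 5 counts, leaving the 10 most abundant genes out of library sizes, thinning to 16309906 counts, only genes averaging 10 CPM or more, a log2 fold change of 2, leaving out genes with overlapping exons, and other backgrounds.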

Additional observations from a re-analysis of the deposited data

How the results depend on the processing

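The medians stayed below 0 against the OLFM4-wild library under each alternative tried. For OLFM4-knockout against OLFM4-wild, the median of -1.12 became -1.47 with library totals, -0.92 over the 31 genes averaging 10 CPM or more and -0.95 over the 37 genes without overlapping exons. The count of 22 genes below -1 became 13 of the 31 genes at 10 CPM, and 13 below -2. OAS1, OAS2, IFI6, XAF1, TRIM22 and SP110 reached a mean of 10 CPM only through the OLFM4-wild library, where they were high. The set at 10 CPM is therefore not independent of the comparison, and no share of all genes at that mean was taken. For the library labelled OLFM4-active, the 30 genes below -1 became 14 below -2. Between OLFM4-knockout and the library labelled OLFM4-active, the median of 0.35 became 0.11 with library totals. With totals 1 gene (MX2, at -1.03) was below -1, beside 6.84% of all genes. The 3 genes above 1 became 1 with library totals (1.28% of all genes), 1 at 10 CPM and 0 above 2. Promoters with the element numbered 25 for the core and 16 for the longer form. For single genes, library totals moved the value by more than its counting error in 34, 4 and 26 of 42 genes in the 3 comparisons, upper quartile factors in 4, 0 and 4, and DESeq2 size factors in 0. No paired analysis was possible because each genotype has 1 library, which also left no replicate to leave out. Depth limits RTP4, MX2 and the interferon genes most.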

Other observations

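Outside the 42 genes, 26 genes averaging 1 CPM or more held the longer form of the element in a promoter window. Their median log2 fold change was -0.20 in OLFM4-knockout against OLFM4-wild and -0.28 in the library labelled OLFM4-active, and 4 (15.4%) and 3 (11.5%) were below -1. Of the 10939 genes outside the 42 without that form, 6.83% and 6.29% were below -1, with medians of 0.10 and 0.04. The shorter core was held by 396 such genes, of which 8.33% were below -1 in both comparisons, with medians of 0.0046 and 0.0070, against 6.79% and 6.23% of the 10569 genes without it. The 4 genes with the longer form below -1 in the knockout library were WIPF1 at -1.78, the complement gene CFB at -1.61, DDX60L, a relative of DDX60, at -1.05, and NCOA7 at -1.04. WIPF1, with 39, 32 and 23 counts, averaged 1 CPM or more only through the OLFM4-wild library, where it was high. It was also 1 of the 3 below -1 in the library labelled OLFM4-active. B2M, the light chain of class I antigen presentation, was at -0.41 and -0.77, and DTX3L, the partner of PARP9, at -0.44 and -0.44. Genes were named here after their values were seen.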
